A study of Mus musculus with 10 samples.

Results

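A set of 8 genes was followed through the single cell data of *Grem1*- and *Lepr*-lineage cells: the FoxO transcription factors *Foxo1*, *Foxo3* and *Foxo4*, the antioxidant enzyme gene *Cat*, and the autophagy genes *Gabarap*, *Gabarapl1*, *Gabarapl2* and *Becn1*. They were chosen by name from the 29183 genes that both deposited count tables list, and all 8 had at least 1 UMI (unique molecular identifier, a tag that lets PCR copies of 1 molecule be counted once) in each lineage. *Grem1-TdT* mice (C57BL/6, *Grem1-creERT* with a TdTomato reporter) received tamoxifen chow for 2 weeks from 5 to 6 weeks of age, and TdTomato-positive cells were sorted from excised articular cartilage (AC) and growth plate (GP) of the hind limbs. Age-matched *Lepr-TdT* mice carry a Cre driven by *Lepr* that needs no tamoxifen, and their cells came from whole bones after removal of CD45+, Ter119+ and CD31+ cells, a step not given for the *Grem1* lineage. Thus the lineages also differ in tissue, digestion and sort, and these cannot be told apart from lineage. The labels do not say how many mice a plate holds, nor which cells came from AC and which from GP.

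*Grem1*-lineage cells were therefore divided by their own counts. A cell with more UMIs of *Clu*, *Cilp* and *1500015O10Rik* together than of *Cnmd* was placed in the Clu-group, and any other in the Cnmd-group. Of 684 cells kept on 8 plates, 414 fell in the Clu-group (43 to 68 per plate, median 1217 UMIs per cell) and 270 in the Cnmd-group (26 to 40 per plate, median 2218.5). For 25 of these cells the 2 sums lay less than 3 UMIs apart, and for 4 they were equal. The *Lepr* lineage gave 160 cells on 2 plates, with a median of 505 UMIs per cell over the genes listed for both lineages (557.5 and 467 by plate) and of 1390 and 1130 by plate over every gene of their own table. All *Grem1*-lineage values rest on the shared genes, whose rows run in sorted order and end among names that begin with Gm, so genes that sort later were not analysed here. AC markers that the rule did not use summed to between 5947 and 9504 CPM (UMIs scaled to a common library size) in Clu-group plates and between 389 and 778 in Cnmd-group plates, with 7 of 12 markers listed. The 5 listed GP markers did not separate the groups, with 2365 to 14428 CPM in the Clu-group and 9119 to 11004 in the Cnmd-group, so the groups are named by their rule and not by tissue. Marrow stromal markers summed to at least 21407 CPM in both *Lepr*-lineage plates and to at most 399 in any *Grem1*-lineage sum. Osteoblast markers were uneven, with 51662 and 68351 CPM in the Clu-group of plates 5 and 7 and 25603 in the Cnmd-group of plate 9, against at most 6130 in every other *Grem1*-lineage sum. Blood markers reached 3542 CPM in a *Grem1*-lineage sum and lay between 4725 and 6062 in the *Lepr* lineage.

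FoxO factors are transcription factors held in the cytoplasm when insulin or growth factor signalling activates AKT, and they enter the nucleus when that signal falls or under oxidative stress. Their known targets include genes of autophagy, antioxidant defence and cell-cycle arrest, and FoxO activity is known to be needed for cartilage upkeep. GABARAP, GABARAPL1 and GABARAPL2 are small ubiquitin-like proteins that are attached to the lipids of the growing autophagosome, Beclin 1 (*Becn1*) is part of the lipid kinase complex that starts it, and catalase (*Cat*) breaks down hydrogen peroxide.

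In GENCODE M21 (GRCm38, the build of mm10), *Foxo1* lies on chr3:52268336-52353221, *Foxo3* on chr10:42181841-42276755, *Gabarapl1* on chr6:129533160-129542346 and *Gabarapl2* on chr8:111940703-111953612. Exons of *Foxo1*, *Gabarapl1* and *Becn1* each overlap those of 1 gene on the opposite strand (*Gm20402*, *1700101I11Rik* and *Cntd1*), and whether the counting used strand is not given in the sources used here, so reads of these pairs may not be separable. Promoter windows of 300 bases around the start (RefSeq, GRCm38.p6) were given for 6 of the 8 genes, all but *Foxo4* and *Becn1*. They were searched on both strands for 4 motifs: GTAAACA, found in 3.65% of 32851 promoters, ATAAACA, in 4.6%, TTGTTTAC, in 1.23%, whose reverse complement contains GTAAACA, and CTTATCA, in 2.3%. Of the 6 windows, that of *Gabarapl1* held 1 match, to ATAAACA on the promoter strand and 95 bases before the start, and the other 5 held none. A match describes the letters only. In GENCODE M21 *Gabarap* starts at chr11:69991143, so most of its window lies inside the annotated gene, unlike those of *Gabarapl1* and *Gabarapl2*. The windows of *Gabarapl1* (chr6:129532942-129533241, plus strand), *Gabarap* (chr11:69991120-69991419, plus strand) and *Gabarapl2* (chr8:111940453-111940752, plus strand) are shown so that the family member with a match can be read beside the others, with the match in capitals.
*Gabarapl1*: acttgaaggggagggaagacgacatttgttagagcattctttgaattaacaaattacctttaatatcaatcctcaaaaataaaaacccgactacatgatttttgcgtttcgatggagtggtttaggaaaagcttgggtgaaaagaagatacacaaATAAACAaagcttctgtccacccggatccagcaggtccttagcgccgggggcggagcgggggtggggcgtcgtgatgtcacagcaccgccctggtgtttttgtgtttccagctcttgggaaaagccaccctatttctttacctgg
*Gabarap*: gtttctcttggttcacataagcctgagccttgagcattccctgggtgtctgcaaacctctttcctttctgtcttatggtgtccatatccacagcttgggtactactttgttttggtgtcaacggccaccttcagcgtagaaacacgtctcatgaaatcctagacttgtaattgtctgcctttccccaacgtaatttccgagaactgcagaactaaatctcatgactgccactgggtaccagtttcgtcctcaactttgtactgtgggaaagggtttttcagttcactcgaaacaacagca
*Gabarapl2*: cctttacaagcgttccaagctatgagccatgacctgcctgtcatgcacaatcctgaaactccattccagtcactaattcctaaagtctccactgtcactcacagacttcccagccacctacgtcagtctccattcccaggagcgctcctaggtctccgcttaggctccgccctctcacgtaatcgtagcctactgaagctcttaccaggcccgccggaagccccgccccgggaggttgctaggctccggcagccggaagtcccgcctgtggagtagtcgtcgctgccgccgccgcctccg

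The first comparison asked whether these genes differ between the 2 groups of *Grem1*-lineage cells. *Foxo1* and *Gabarapl1* were about 4-fold higher in the Clu-group, although the call of *Gabarapl1* was lost at equal depth without a filter. *Gabarapl2* was higher by less, and its call was lost with no filter on low counts. *Foxo3* and *Gabarap* did not pass the main test, and both passed with the plate as a block (edgeR adjusted p = 0.0021 and 0.048). *Foxo4*, *Cat* and *Becn1* were too rare to be tested. Counts were summed per plate and group and tested with edgeR's quasi-likelihood test, where 444 of 1075 genes passed an adjusted p of 0.05 (41.3%), 227 of them higher in the Clu-group (21.1%) and 217 lower (20.2%). A gene entered the test when at least 8 of the 16 sums reached about 133 CPM before TMM scaling. *Foxo1* (2 of 8 Cnmd-group sums at that level) and *Gabarapl1* (0 of 8) entered only through their high values in the Clu-group, so how many of the genes tested passed is not read as a result. Their values with no such filter stand beside the main ones.

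*Foxo1*, a FoxO factor known from cartilage, was at 307 CPM at the lowest, 465 at the median and 549 at the highest of the 8 Clu-group plates. In the Cnmd-group the same values were 53.6, 89.2 and 264 CPM. Every Clu-group plate lay above every Cnmd-group plate, which held for 83 of the 1075 genes (7.72%). The means were 460.4 ± 77.6 and 116 ± 69.7 CPM (SD, n = 8 plates), and the log2 fold change was 2.00 (SE 0.26, edgeR adjusted p = 2.7e-06), or 1.82 (SE 0.26, edgeR adjusted p = 1.6e-10) with no filter on low counts. The values rest on 216 *Foxo1* UMIs in the Clu-group and 85 in the Cnmd-group. On plates 1, 2 and 4 alone, which leaves out the plates with high osteoblast markers, it was 2.54 (edgeR adjusted p = 0.00053), and on plates 5 to 9 it was 1.74 (edgeR adjusted p = 0.00017).

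*Foxo3*, which shares most known targets with *Foxo1*, ranged from 111 CPM through a median of 445 to 581 in the Clu-group and from 73.6 through 268 to 561 in the Cnmd-group. The groups overlapped, and on each of the 8 plates the Clu-group was the higher one, and plate 1 was lowest in both groups. The log2 fold change was 0.62 (SE 0.33, edgeR adjusted p = 0.14). Both sums of a plate come from the same library, and with the plate as a block the value was 0.67 (SE 0.15, edgeR adjusted p = 0.0021), where 24.2% of genes were called higher in the Clu-group. *Foxo4* had 10 UMIs in the Clu-group and 7 in the Cnmd-group, so no difference could be detected at this depth.

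Within the FoxO family, *Foxo1* made up 43.9% to 76.5% of the UMIs of the 3 genes in Clu-group plates (median 50.8%) and 14.8% to 50% in Cnmd-group plates (median 29.2%). The share was higher in the Clu-group on 8 of 8 plates. A share of this kind does not depend on library scaling. It was added after the levels had been seen and was not tested.

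**Figure D1:**
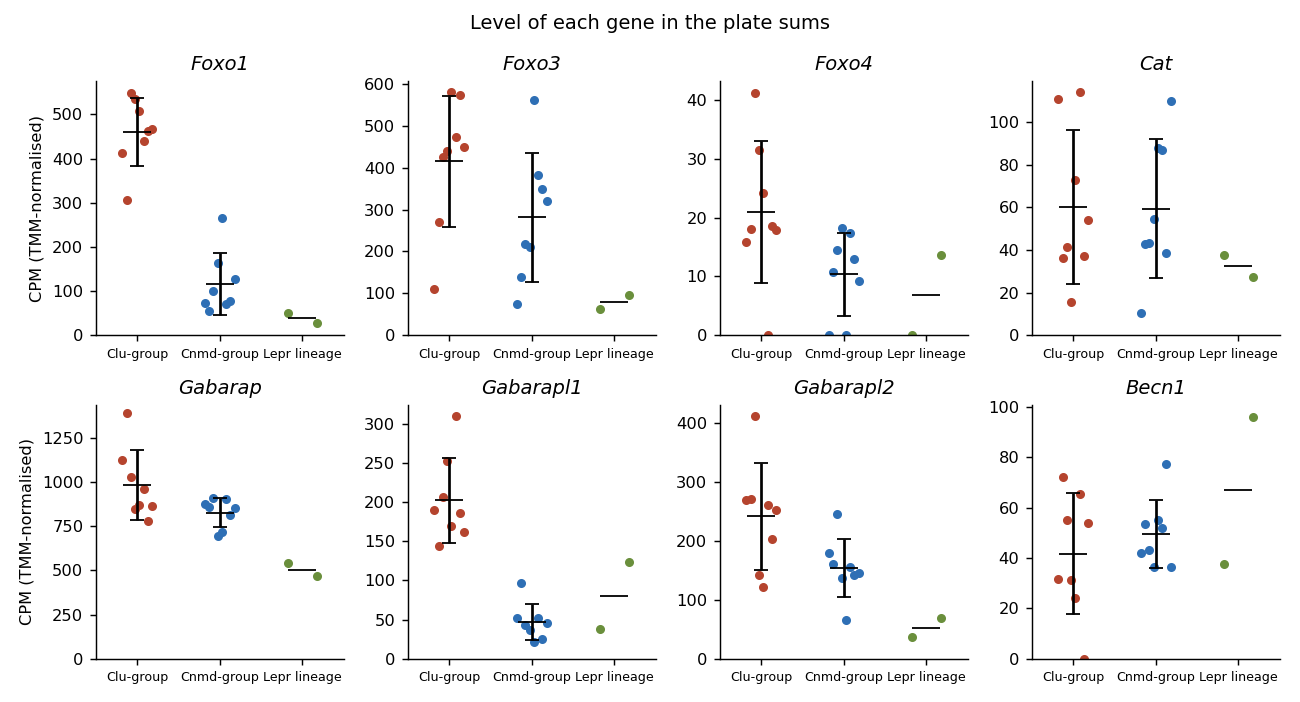
CPM of each gene (y axis, TMM-normalised over all 18 sums, own scale per panel) in the 8 Clu-group, 8 Cnmd-group and 2 *Lepr*-lineage plate sums. Each point is 1 plate, in plate order within a group, the dash is the mean and bars are SD (not drawn for 2 plates), and *Foxo1* and *Gabarapl1* do not overlap between Clu-group and Cnmd-group.

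*Gabarapl1*, a reported FoxO target, was at 144 CPM at the lowest, 188 at the median and 309.7 at the highest Clu-group plate. Cnmd-group plates had 22.0, 44.5 and 96.4 CPM. The groups did not overlap, and the highest Cnmd-group value was that of plate 2, where the Clu-group was at its lowest. The means were 202 ± 54.1 and 46.8 ± 23.0 CPM (SD, n = 8 plates), and the log2 fold change was 2.14 (SE 0.26, edgeR adjusted p = 1.5e-06), or 1.97 (SE 0.34, edgeR adjusted p = 5.2e-07) with no filter on low counts. The gene has 96 UMIs in the Clu-group and 33 in the Cnmd-group. It did not pass the filter on low counts on plates 1, 2 and 4 alone or without plate 5. The same held with no minimum of detected genes, with rule sums at least 3 UMIs apart and with each cell thinned. With each cell thinned to 796 UMIs and no filter on low counts the log2 fold change was 1.38 (edgeR adjusted p = 0.062).

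*Gabarapl2* ranged from 121 CPM through 256 to 412 in the Clu-group and from 66.0 through 151 to 245 in the Cnmd-group. These ranges overlapped, while the Clu-group was higher on each of 8 plates. The log2 fold change was 0.75 (SE 0.25, edgeR adjusted p = 0.021). With no filter on low counts it was 0.57 (SE 0.27, edgeR adjusted p = 0.26), and the call was lost. Without plate 7 the adjusted p was 0.057 and without plate 9 it was 0.053. It was also above the threshold on plates 1, 2 and 4 alone (0.094) and on plates 5 to 9 alone (0.12).

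*Gabarap* ranged from 779 CPM through 917 to 1389.9 in the Clu-group and from 693 through 854 to 909 in the Cnmd-group. It was higher in the Clu-group on 7 of 8 plates. The log2 fold change was 0.32 (SE 0.14, edgeR adjusted p = 0.066), and 0.30 with the plate as a block (edgeR adjusted p = 0.048). Both *Gabarap* and *Gabarapl2* depend on how the libraries are scaled: with library sizes alone in place of TMM factors, the median of all genes moved from 0.02 to -0.34, 133 genes were called higher and 394 lower, *Gabarap* was at -0.03 (edgeR adjusted p = 0.90) and *Gabarapl2* at 0.40 (edgeR adjusted p = 0.25). *Foxo1* (1.66) and *Gabarapl1* (1.78) still passed with that scaling.

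Among the UMIs of the 3 GABARAP genes, *Gabarapl1* took 8.00% to 20.3% in the Clu-group (median 13.6%) and 2.63% to 8.65% in the Cnmd-group (median 4.30%). It was higher in the Clu-group on 7 of 8 plates, with plate 2 as the exception. This share was also chosen with the levels in view and was not tested.

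**Figure D2:**
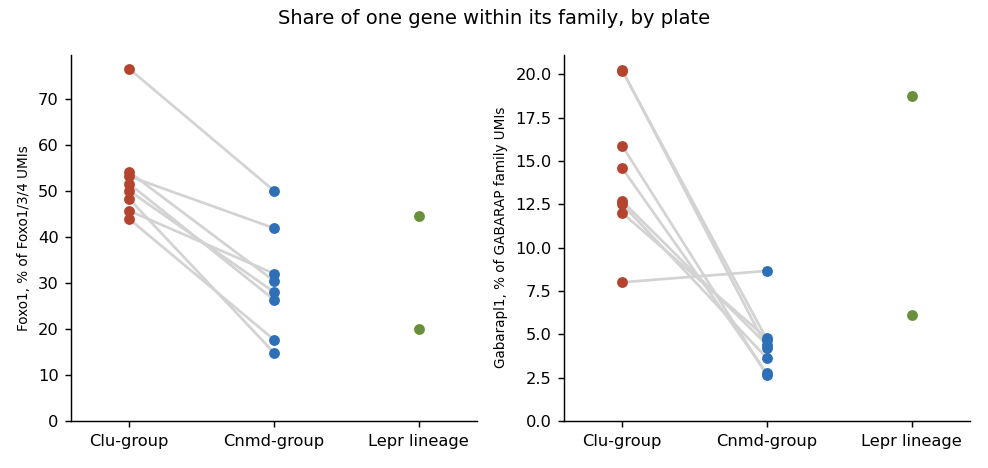
Percent of family UMIs (y axes, from 0) that are *Foxo1* (left, of *Foxo1*, *Foxo3* and *Foxo4*) or *Gabarapl1* (right, of the 3 GABARAP genes), 1 point per plate, with grey lines joining the 2 groups of a plate. All 8 lines fall from Clu-group to Cnmd-group on the left and 7 of 8 on the right.

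*Cat* and *Becn1* showed no such order. *Cat* had 28 UMIs in the Clu-group and 42 in the Cnmd-group, with 60.2 ± 36.1 and 59.3 ± 32.7 CPM (SD, n = 8 plates), and was higher in the Clu-group on 2 of 8 plates. *Becn1* had 20 and 34 UMIs, with 41.7 ± 24.1 and 49.5 ± 13.4 CPM, and was higher in the Clu-group on 4 of 8 plates. Neither reached the count needed for the test.

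Other genes of the same pathways were read from lists. Of 39 candidate FoxO targets, 22 were listed in both tables and 7 were tested, of which 4 rose in the Clu-group and 0 fell, where 21.1% of all genes tested rose and 20.2% fell (median log2 fold change 1.12, against 0.02 over all genes). They were *Gabarapl1*, the G1 cyclin *Ccnd2* (3.24, SE 0.33), the cell-cycle inhibitor *Cdkn1a* (1.21, SE 0.20) and the mitophagy receptor *Bnip3* (1.12, SE 0.19), and *Btg1*, *Cdkn1b* and *Ddit4* did not pass. FoxO factors are known to repress *Ccnd2*, so the 4 genes do not share 1 expected direction. Of 46 autophagy genes, 28 were listed and 6 tested, and 4 rose, against the same 21.1% over all genes: *Gabarapl1*, *Gabarapl2*, *Bnip3* and its homologue *Bnip3l* (0.72, SE 0.22), while *Atg3* and *Gabarap* did not pass. Of 43 antioxidant genes, 11 were listed and 3 tested, and the ferritin heavy chain gene *Fth1*, which stores iron, rose (1.11, SE 0.16). Of 22 FoxO regulators, 9 were listed and 1 tested, the coactivator *Crebbp*, which did not pass. *Gabarapl1*, *Ccnd2*, *Bnip3* and *Bnip3l* reached the filter only through the Clu-group, so these counts and the median of 1.12 are no support for a direction of the lists. List genes whose names sort after the shared rows, among them *Gpx3*, *Map1lc3b*, *Sod2* and *Sqstm1*, were not analysed here, and most of the listed ones were too rare to test, so the counts do not describe the lists as a whole. *Bnip3l* did not pass without plate 4 (edgeR adjusted p = 0.051) or with library sizes alone (0.21).

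The second comparison set the lineages side by side. *Foxo1*, *Foxo3*, *Gabarap* and *Gabarapl2* were lower in *Lepr*-lineage cells, and *Cat* and *Gabarapl1* did not pass the test. Of 2944 genes tested, 851 passed (28.9%), 358 higher (12.2%) and 493 lower (16.7%) in the *Lepr* lineage. *Foxo1*, *Gabarapl2*, *Cat* and *Gabarapl1* reached the filter only through *Grem1*-lineage plates, so the number that passed is not read as a result. With no such filter *Foxo1* was at -3.06 (edgeR adjusted p = 3.6e-07) and *Gabarapl2* at -2.22 (edgeR adjusted p = 0.00048). In that fit the median over all 13283 genes was itself -0.79. With library sizes alone the split was 681 higher and 315 lower, and the median of all genes moved from -0.11 to 0.35.

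*Foxo1* was at 50.1 and 27.4 CPM in the *Lepr*-lineage plates, below all 16 *Grem1*-lineage sums, as were 8.29% of the genes tested. The log2 fold change against whole *Grem1*-lineage plates was -2.84 (SE 0.47, edgeR adjusted p = 0.00035). Those CPM stand on 4 and 2 UMIs. Against Clu-group cells alone it was -3.51 (edgeR adjusted p = 2.0e-05) and against Cnmd-group cells alone -1.59 (edgeR adjusted p = 0.095). *Foxo3* was at 62.7 and 96.0 CPM, of which the higher lay above the lowest Cnmd-group sum. Its log2 fold change was -2.23 (SE 0.62, edgeR adjusted p = 0.013), and the call was lost without either *Lepr*-lineage plate, at -2.07 without plate 1 (edgeR adjusted p = 0.095) and -2.58 without plate 2 (edgeR adjusted p = 0.065). On plates 1 and 2 of each lineage alone it was -0.91 (SE 0.59, edgeR adjusted p = 0.31).

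*Gabarap* was at 539 and 466 CPM, below all 16 *Grem1*-lineage sums, with a log2 fold change of -0.97 (SE 0.25, edgeR adjusted p = 0.0083). The call was lost without *Lepr*-lineage plate 2 (0.072) and with library sizes alone (-0.52, edgeR adjusted p = 0.18). *Gabarapl2* was at 37.6 and 68.6 CPM with a log2 fold change of -1.996 (SE 0.54, edgeR adjusted p = 0.011), and 0.093 without *Lepr*-lineage plate 1. The *Gabarapl2* CPM stand on 3 and 5 UMIs. *Gabarapl1* was at 37.6 and 123 CPM in the *Lepr*-lineage plates, which stand on 3 and 9 UMIs. The log2 fold change of *Gabarapl1* was -0.64 (SE 0.48, edgeR adjusted p = 0.34). *Cat*, at 37.6 and 27.4 CPM (3 and 2 UMIs), had a log2 fold change of -1.01 (SE 0.65, edgeR adjusted p = 0.25). *Becn1* (37.6 and 96.0 CPM, 3 and 7 UMIs) and *Foxo4* (0 and 1 UMI) were not tested.

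**Figure D3:**
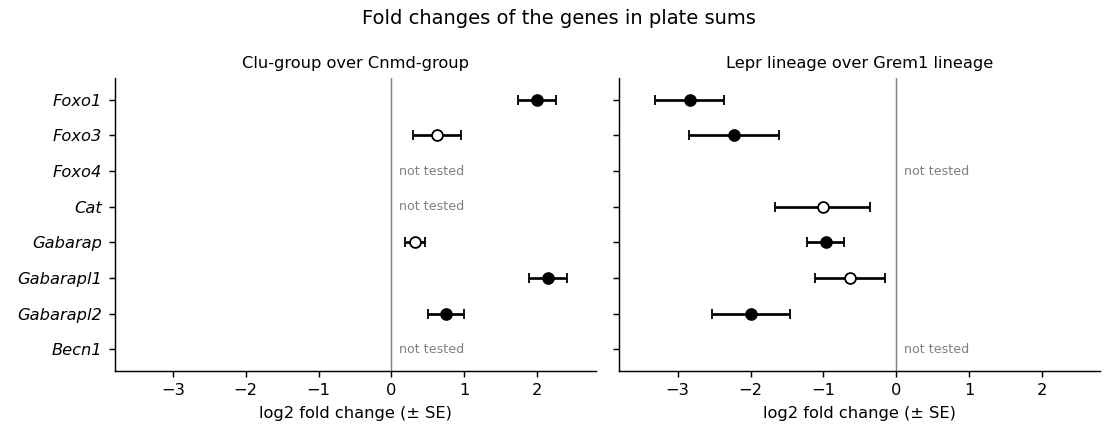
log2 fold change (x axis, points) with its approximate SE (bars) for Clu-group over Cnmd-group (left) and *Lepr* over *Grem1* lineage (right), with filled points where the edgeR adjusted p is under 0.05. The points drawn, all of genes that passed the filter, lie above 0 on the left and below it on the right. *Foxo1* and *Gabarapl1* on both sides, and *Cat* and *Gabarapl2* on the right, passed only through the group where they are high. With no filter the left values of *Foxo4*, *Cat* and *Becn1* were 0.86, -0.10 and -0.31, none past the threshold.

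Of the candidate targets, 12 were tested between lineages, where 12.2% of all genes were higher and 16.7% lower in the *Lepr* lineage. The translation inhibitor gene *Eif4ebp1* was higher in the *Lepr* lineage (1.82, SE 0.38), and 6 were lower: *Bnip3* (-4.36, SE 0.62), the mTORC1 inhibitor *Ddit4* (-2.16, SE 0.52), the antiproliferative gene *Btg1* (-1.93, SE 0.43), *Cdkn1a* (-1.45, SE 0.36), *Ccnd1* and *Ccnd2*, of which the last 2 are outside the 5 named by rule. Of 12 autophagy genes, *Atg5*, which joins ATG12 in the lipid conjugation of GABARAP proteins, was higher (1.61, SE 0.44) and *Bnip3*, *Gabarap* and *Gabarapl2* were lower. Of 10 antioxidant genes, glutaredoxin (*Glrx*, 1.90, SE 0.43) and ferritin light chain (*Ftl1*, 1.57, SE 0.36) were higher and 0 were lower, 2 of 10 against 12.2% over all genes. Of 3 FoxO regulators, the kinase *Akt2* (-3.23, SE 0.58) and *Crebbp* (-1.20, SE 0.42) were lower. *Bnip3*, *Ddit4* and *Akt2* reached the filter only through the *Grem1* lineage, and *Atg5* and *Glrx* only through the *Lepr* lineage, so these counts are no support for a direction of the lists. The list medians were -1.43, -0.49, 0.37 and -1.20 for targets, autophagy, antioxidant genes and regulators, against -0.11 over all genes. They are taken over the same filtered genes and are no support for a direction either. Without *Lepr*-lineage plate 2 the calls of *Cdkn1a*, *Ddit4*, *Eif4ebp1* and *Crebbp* were lost, and without plate 1 those of *Atg5*, *Glrx* and *Ftl1*.

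Detection in single cells was compared at a common depth of 272 UMIs, the 10th percentile of the shallowest group, as the expected share of cells that keep at least 1 UMI. *Foxo1* was then detected in 10.1% ± 1.66 of Clu-group cells (SD, n = 8 plates), 3.34% ± 1.94 of Cnmd-group cells and 2.51% and 0.705% of cells on *Lepr*-lineage plates 1 and 2, where 144 of 160 cells reach that depth. It was higher in the Clu-group on 8 of 8 plates. *Gabarapl1* was detected in 4.68% ± 1.10 of Clu-group and 1.65% ± 1.16 of Cnmd-group cells, higher in the Clu-group on 8 of 8 plates, and in 0.674% and 3.76% of cells on the *Lepr*-lineage plates, on either side of the Cnmd-group mean. *Gabarapl2*, at 6.28% ± 2.28 and 4.96% ± 2.09, was higher in the Clu-group on 8 of 8 plates and *Foxo3*, at 9.10% ± 2.60 and 7.45% ± 3.29, on 7 of 8. *Gabarap*, at 21.6% ± 4.59 and 21.4% ± 2.54, was higher on 3 of 8 plates, and *Cat*, at 1.38% ± 0.755 and 1.78% ± 0.870, on 1 of 8. Counted as deposited, without equal depth, the Clu-group was higher on 0 of 8 plates for *Foxo3*, *Gabarap*, *Gabarapl2* and *Becn1*, in a count where Cnmd-group cells are the deeper ones. *Foxo1* and *Gabarapl1* were higher in the Clu-group on 7 of 8 plates in that count.

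**Figure D4:**
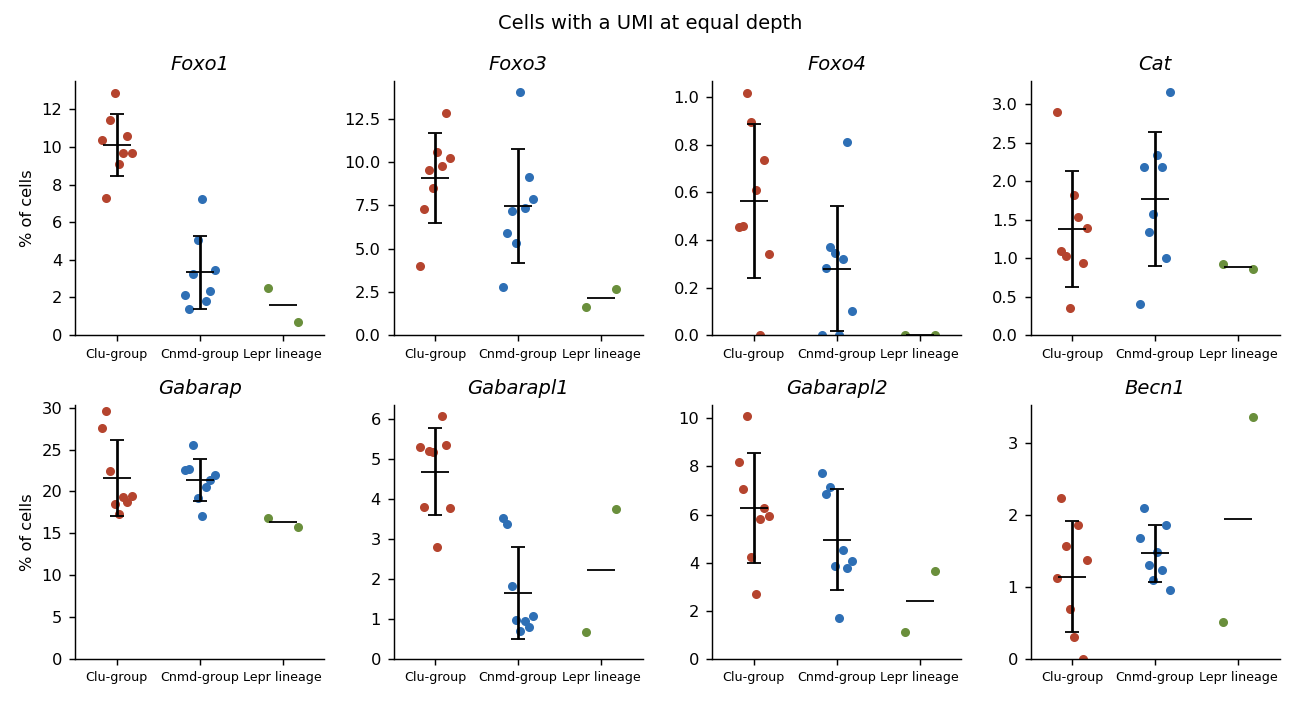
Percent of cells expected to hold at least 1 UMI at 272 UMIs per cell (y axis, own scale per panel from 0), by plate (points), with the mean (dash) and SD (bars, not drawn for 2 plates). Clu-group plates lie above the Cnmd-group on all 8 plates for *Foxo1*, *Gabarapl1* and *Gabarapl2*.

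It was then asked whether the other genes follow *Foxo1* from cell to cell within the Clu-group. At 749 UMIs per cell, which 372 of 414 cells reach, none of the 7 passed the test. *Gabarapl1* was detected in 12.2% of cells with *Foxo1* and 9.25% of cells without it, *Gabarap* in 49.2% and 47.5%, *Gabarapl2* in 13.5% and 14.6%, and *Foxo3* in 18.8% and 19.0%. *Cat* was detected in 2.52% and 3.64%, *Becn1* in 1.83% and 3.32%, and *Foxo4* in 1.93% and 1.44%.

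The log odds ratio of joint detection, computed after 0.5 was added to all 4 counts of each plate, was above 0 on 6 of 8 plates for *Gabarapl1*, with a mean of 0.35 ± 0.63 (SD over 8 plates, adjusted p = 0.30 by an exact two-sided permutation test that flips signs). Plates ranged from -0.66 to 1.21. The corresponding means were 0.12 for *Foxo3*, 0.10 for *Gabarap*, 0.10 for *Gabarapl2*, 0.25 for *Cat* and 0.35 for *Becn1*, with adjusted p from 0.30 to 0.61 in the exact permutation test. For *Foxo3*, *Gabarapl2*, *Cat* and *Becn1* the sign was opposite to that of the shares above. The highest *Becn1* value, 1.21, was that of plate 8, which held no *Becn1* UMI in the Clu-group. On simulated independent detection this form leaned upwards, so these signs are not read as a positive link. *Foxo4* was above 0 on 8 of 8 plates (mean 0.82, adjusted p = 0.055 by the exact permutation test). Plate 7 held no *Foxo4* UMI in the Clu-group, and its value of 1.14 came from the added 0.5 alone. Plates 1, 6, 8 and 9 had no cell expected to hold both genes, with values from 0.17 to 0.56. A value above 0 on these plates is thus no sign of joint detection. An unadjusted p of 0.0078, which *Foxo4* has, is the smallest that 8 plates allow, and adjusted over 7 genes a single gene cannot pass 0.05. The *Foxo4* value changed with the form of the measure: both other forms, computed after this one had been seen, were above 0 on 2 of 8 plates. These were a log odds ratio with 2 counts added in proportion to the margins (mean -0.95) and the plain difference of shares (0.49 percentage points). All 3 forms gave 0 of 7 genes past the threshold. For *Gabarapl1* the plain difference was 2.18 ± 8.48 percentage points (SD over 8 plates), so a difference of a few points in either direction was not detectable at this depth.

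**Figure D5:**
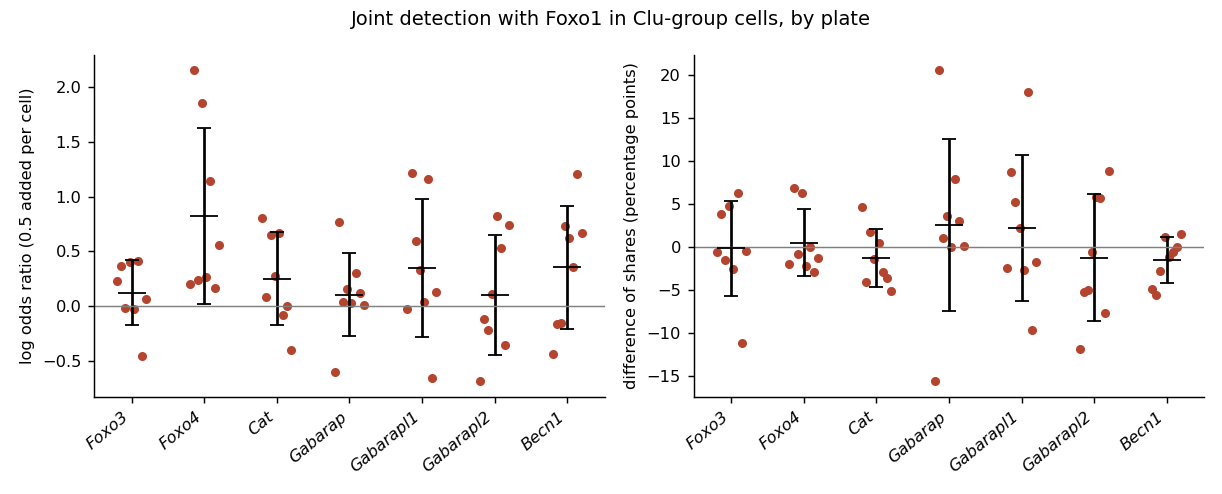
Joint detection of each gene with *Foxo1* in Clu-group cells at 749 UMIs per cell, 1 point per plate with mean (dash) and SD (bars), as the log odds ratio with 0.5 added (left), and as the share of cells with the gene among cells with *Foxo1* minus that among cells without (right, percentage points). The points of most genes fall on both sides of 0, while *Foxo4* lies above 0 on all 8 plates on the left and on 2 on the right. On plate 7, which held no *Foxo4* UMI, the left value came from the added 0.5 alone.

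Summed by plate, 84 thinned Clu-group cells with a *Foxo1* UMI (9 to 13 per plate) were compared with 288 without. Without means that no *Foxo1* UMI was left after thinning, not that the cell lacks *Foxo1*. As deposited, 141 of 414 Clu-group cells hold a *Foxo1* UMI. The 2 sets of cells are thus mixed, and a gene that does not pass may still follow *Foxo1*. Of 157 genes tested, 0 passed in edgeR (0%) and 0 in DESeq2, with 7 and 6 at an unadjusted p under 0.05. *Gabarap* was at a log2 fold change of 0.01 (SE 0.24, edgeR adjusted p = 0.99). The candidate targets tested were *Cdkn1a* (0.46, SE 0.27), *Btg1* (0.27, SE 0.28) and *Ccnd2* (-0.31, SE 0.29), and 0 of 3 passed. With all genes of at least 20 UMIs, 10 candidate targets were tested and 0 passed (median 0.22, against -0.04 over 1804 genes), with *Gabarapl1* at 0.87 (SE 0.53, edgeR adjusted p = 0.98), *Gabarapl2* at -0.36 and *Foxo3* at -0.51. The 1 gene that passed there was *Ctcfl* (3.63, SE 0.66), named after its value was seen. Without any filter the median over all 8907 genes was itself -0.78. In that fit 12 genes passed as lower in cells with *Foxo1* and 1, *Ctcfl*, as higher, and the 12, also named after their values were seen, included *Fth1* (-0.87, SE 0.22, edgeR adjusted p = 0.044) and the osteoblast markers *Bglap*, *Bglap2*, *Bglap3*, *Col1a1* and *Col1a2*, whose part in this comparison was not tested.

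Across the 18 sums, the genes whose log2 CPM was most like that of *Foxo1* among 2591 genes with a mean of at least 50 CPM were *Fgf2* (Pearson's r = 0.94), *Crim1* (0.94), *Apold1* (0.94), *A230065H16Rik* (0.93) and *Erg* (0.93), the last of which is among the AC markers. *Gabarapl1* ranked 178 (0.68) and *Foxo3* 181 (0.67). These sums share libraries and differ mainly by group, so the values describe the group pattern. Within the 8 Clu-group sums r with *Foxo1* was 0.41 for *Gabarapl1* and -0.76 for *Gabarap*, and within the 8 Cnmd-group sums -0.71 and -0.77. In the same order, *Foxo3* was at 0.51 and 0.55, *Gabarapl2* at -0.23 and -0.70 and *Cat* at -0.17 and 0.49. Each r rests on 8 sums, with 2 to 9 *Gabarapl1* UMIs per Cnmd-group sum, and was not tested.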

How the data were processed

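Counts were used as the authors deposited them, which are whole UMI numbers for each gene in each well, not normalised. The submitters' processing notes name UMI-tools, STAR, featureCounts, SAMtools, Seurat and mm10, and versions and counting strand are not given in the sources used here. A total of 1 incomplete row of the *Grem1*-lineage table was left out. Wells with fewer than 350 detected genes were dropped, leaving 684 of 768 and 160 of 162. Detected genes were counted over each lineage's own table. That of the *Lepr* lineage lists 50508 genes, against 29183 shared ones, so the cut was stricter for *Grem1*-lineage wells. With the minimum taken over the shared genes, 862 of 2943 genes passed between lineages, against 851 of 2944. All *Grem1*-lineage plates use the same 96 well barcodes. UMIs were summed per plate and group (at least 10 cells; 5 for cells with or without *Foxo1*), giving 51229 to 106289 UMIs per sum over the shared genes. Precision is limited by the few UMIs of rare genes. Sums were tested in edgeR 4.0.16 in R 4.3.3 (TMM, filterByExpr, quasi-likelihood test, Benjamini-Hochberg over all genes tested, threshold 0.05), with DESeq2 1.42.0 as an alternative. SE is the log2 fold change over the square root of F and is approximate. The replicate is the plate, and since separate mice are not stated, p-values may measure technical spread only. Both sums of a plate share a library, and their deviations from group means correlated at 0.19 to 0.45 on the 8 plates. The fits were tested on simulated data.

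Joint detection with *Foxo1* was to be a log odds ratio with 0.5 added to each cell, and that is the value reported first. On simulated independent detection this form leaned upwards and passed too often. The simulation used Clu-group depths and a partner gene at a single level, near that of *Gabarapl1*. The bias of any form for rarer or more abundant genes, or in Cnmd-group cells, was not simulated. After its results on the real counts had been seen, 2 further forms were computed, first with 2 counts split by the margins, which leaned downwards, and then the difference of shares, which showed little bias. All 3 are reported. The members and gene lists were chosen with earlier results of these data known. Per list and comparison, up to 5 called genes are named by size of change if their mean level reaches 50 CPM, and *Foxo1*-like genes are the 5 with the highest correlation. Genes outside the shared list were not analysed here. Alternatives were scaling, filters, depth, grouping rule, plates left out and the plate as a block.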

Additional observations from a re-analysis of the deposited data

Results flagged for a closer look

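Of 43 sets of 8 plate values, 5 held a plate far from the others by Dixon's criterion. The chance rate of about 1 in 20 sets holds for independent, normally distributed values. Several of these sets rest on few UMIs and some share counts, so the 5 are not read as an excess. *Gabarapl1* in the Cnmd-group was at 96.4 CPM (9 UMIs) on plate 2, against 52.6 (5 UMIs) on the next plate. Its share of GABARAP family UMIs on plate 2 was 8.65%, against 4.76%, a flag that comes from the same 9 UMIs. *Becn1* in the Cnmd-group was at 77.3 CPM (6 UMIs) on plate 8, against 55.0 (5 UMIs). *Foxo1* made up 76.5% of FoxO UMIs in the Clu-group of plate 1, against 54.1%, where *Foxo3* was at its lowest. *Foxo4* was detected in 0.811% of Cnmd-group cells at equal depth on plate 8, against 0.372% on plate 4, and each value rests on 1 UMI.

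Joint detection with *Foxo1* differed between the Clu-group and the Cnmd-group for 6 of 7 genes in the log odds ratio with 0.5 added (exact two-sided sign-flip permutation test over 8 plates, adjusted p from 0.027 to 0.046 for the 6). The differences, Clu-group minus Cnmd-group, were -0.29 for *Foxo3*, -1.08 for *Foxo4*, -0.9999 for *Cat*, -0.97 for *Gabarapl1*, -0.52 for *Gabarapl2* and -0.88 for *Becn1*. None of the 7 passed with 2 counts split by the margins (adjusted p from 0.66 to 0.99 in the exact permutation test) or as a difference of shares (0.55 to 0.82). These calls were therefore made by 1 of 3 forms, the one that leaned upwards on data simulated at Clu-group depths. Cnmd-group cells were not simulated.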

How the results depend on the processing

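*Foxo1* stayed higher in the Clu-group, past the threshold, in all 20 alternatives that tested it (log2 fold change 1.66 to 2.54). *Gabarapl1* did so in 15 of 16, and *Gabarapl2* lost its call in 7 of 20. With each cell thinned and the filter kept, *Foxo1*, *Gabarapl1* and *Gabarapl2* could not be tested. Genes called between Clu-group and Cnmd-group numbered 444, against 710 of 12514 without a filter, 173 of 398 with each cell thinned and 239 of 1174 on plates 1, 2 and 4 alone. With library sizes alone *Gabarap* turned to -0.030. The plate as a replicate block called 503 genes and changed no call of these 8 genes other than *Foxo3* and *Gabarap*. Between lineages, leaving out 1 plate gave 529 to 849 genes against 851. With plates 1 and 2 of each lineage, which share a number only, 436 genes passed with the replicate block and 451 without it, and *Foxo3* was at -0.87 (edgeR adjusted p = 0.36) and -0.91 (0.31). For cells with and without *Foxo1*, 13 of 8907 genes passed without a filter, 12 of them lower, 1 passed at 20 UMIs or more, and 0 with the replicate block. *Gabarap*, at 0.01 there, was -0.0090 in DESeq2, -0.013 with its size factors, -0.61 without a filter (where the median of all genes was -0.78), -0.0047 with the replicate block, -0.057 with *Foxo1* status from the deposited counts, -0.37 in Cnmd-group cells and -0.094 to 0.059 with 1 plate left out.

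Joint detection turned negative with counts split by the margins for *Foxo3* (-0.0069), *Foxo4* (-0.95), *Cat* (-1.69), *Gabarapl2* (-0.080) and *Becn1* (-1.29), and as a difference of shares for *Foxo3* (-0.18), *Cat* (-1.31), *Gabarapl2* (-1.26) and *Becn1* (-1.55 percentage points). Both forms were chosen after seeing the data. It also did with counts as deposited for *Foxo3* (-0.074), *Cat* (-0.16) and *Becn1* (-0.22), in 1 random draw for *Gabarap* (-0.20) and *Gabarapl2* (-0.18), and in a logistic model with depth for *Foxo3* (-0.13), *Cat* (-0.21), *Gabarap* (-0.026) and *Becn1* (-0.29). *Gabarapl2* ranged from -0.0015 to 0.21 with 1 plate left out. *Gabarapl1* stayed above 0 in these settings and did not pass. It was at 0.50 with counts as deposited (22.7% of cells with *Foxo1* and 13.9% without) and at 0.41 in the logistic model. Over all *Grem1*-lineage cells it was at 0.44 (adjusted p = 0.16 by the exact permutation test). In the random draw it was at 0.20 and with counts split by the margins at 0.060. In Cnmd-group cells 2 genes passed with 0.5 added, *Foxo4* (1.39) and *Gabarapl1* (0.89), although *Foxo4* was detected in 0.074% of cells with *Foxo1* and 0.941% without and *Gabarapl1* in 5.76% and 5.49%, while *Foxo3* was at -0.0076 and *Gabarap* at -0.13. The library size scaling, the thinning without a filter and the minimum of 20 UMIs were also chosen after seeing the data. The causes were not tested.

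Shares of cells with a UMI differed from those at equal depth when counted as deposited. In Clu-group cells they were 34% for *Foxo1*, 26.4% for *Foxo3*, 1.93% for *Foxo4*, 5.35% for *Cat*, 64% for *Gabarap*, 16.7% for *Gabarapl1*, 22.1% for *Gabarapl2* and 4.44% for *Becn1*. In Cnmd-group cells they were 22.6% for *Foxo1*, 31.6% for *Foxo3*, 2.34% for *Foxo4*, 12.2% for *Cat*, 80.9% for *Gabarap*, 10.9% for *Gabarapl1*, 30.3% for *Gabarapl2* and 11.9% for *Becn1*. In *Lepr*-lineage cells they were 3.28% for *Foxo1*, 5.61% for *Foxo3*, 0.581% for *Foxo4*, 3.19% for *Cat*, 33.4% for *Gabarap*, 5.52% for *Gabarapl1*, 4.93% for *Gabarapl2* and 6.1% for *Becn1*.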
